A study of Mus musculus with 14 samples.

Results

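Transcripts of 10 genes known for pluripotency and for early germ cells were followed in male germ cells of postnatal mouse testis. They are Pou5f1, Sox2, Nanog, Esrrb, Klf4, Dppa2, Dppa3, Dppa4, Dppa5a and Alpl, taken by name from the 24340 gene symbols of the deposited tables. All 10 were found, and all 10 passed the filter on low values that kept 14772 genes for testing. The study removed Jmjd1a and Jmjd1b, listed in the tables as Kdm3a and Kdm3b, which encode demethylases of lysine 9 on histone H3.

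The 14 libraries form 7 groups of 2, all from C57BL/6 testis. At postnatal day 7 (P7) there were double knockouts (DKO: Vasa-Cre, Jmjd1a-/-, Jmjd1b-/-) and controls (Ctrl: Vasa-Cre, Jmjd1a-/+, Jmjd1b-/+). At postnatal day 3 (P3) there were DKO animals, Jmjd1a knockouts with 1 remaining copy of Jmjd1b (Jmjd1aKO), Jmjd1b knockouts with 1 remaining copy of Jmjd1a (Jmjd1bKO), Ctrl animals and wild type (WT). Every group but WT carried Vasa-Cre, a recombinase driven in germ cells, and Ctrl animals had lost 1 copy of each gene. The labels state neither a sort of the cells nor whether the 2 libraries of a group came from separate animals. The tests below therefore speak of the spread among libraries, which may be technical.

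Pou5f1 (also called Oct4), Sox2 and Nanog encode transcription factors at the core of the network that keeps embryonic stem cells pluripotent, and Pou5f1 and Sox2 proteins bind DNA side by side at joined octamer and SOX motifs. Esrrb, an orphan nuclear receptor, and Klf4, a zinc finger factor, act in the same network. Primordial germ cells turn many of these genes on again, together with Dppa3 (Stella), which protects DNA methylation in the fertilized egg, Alpl, the alkaline phosphatase whose activity is used to stain these cells, and other Dppa genes. After birth, germ cells of the male enter the spermatogonial lineage, in which undifferentiated cells keep Pou5f1 and differentiating cells turn it off.

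Levels are RPKM, read numbers scaled by transcript length and library size, as the authors deposited them. Changes are differences of log2(RPKM + 1) with their SE from limma, fitted over all 14 libraries, and a gene is called when its Benjamini-Hochberg adjusted p is under 0.05. The added 1 makes the change of a low gene smaller than the ratio of its RPKM. The tables hold no counts. Depth estimated from the steps between RPKM values ran from 13.5 M (mega) fragments in a P3 WT library to 50.2 M in a P3 DKO library. In a bulk sample, fewer cells of a type and less RNA per cell cannot be told apart.

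By GENCODE M21 on GRCm38, the build named mm10 in the labels, Pou5f1 is at chr17:35506018-35510772, Sox2 at chr3:34650405-34652461, Nanog at chr6:122707489-122714633, and Esrrb at chr12:86361117-86521628, all on the plus strand. Klf4 lies at chr4:55527143-55532466 and Alpl at chr4:137741733-137796384, both on the minus strand. Dppa2 (chr16:48303908-48319723) and Dppa4 (chr16:48283733-48294237) are neighbours on the plus strand. Dppa3 (chr6:122626410-122630272, plus strand) is on the chromosome of Nanog, and Dppa5a is at chr9:78367052-78368177 on the minus strand. The same annotation lists pseudogenes or near copies of Pou5f1, Nanog, Dppa3 and Dppa5a, and how reads were shared among them is not given in the sources used here. Sox2 lies inside the noncoding gene Sox2ot, which reached at most 0.56 RPKM in any library.

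RefSeq promoter sequences on GRCm38.p6 matched 6 of the 10 genes. The 250 bases before the first listed start are printed for Pou5f1, Sox2 and Esrrb, whose transcripts fell together in P7 DKO cells, and for Nanog, whose transcripts rose there. Capitals mark matches to 4 motifs searched on both strands: the octamer core ATGCAAA, the SOX core ACAATG, the nuclear receptor half-site AGGTCA and the GC box GGGCGGG.
Pou5f1: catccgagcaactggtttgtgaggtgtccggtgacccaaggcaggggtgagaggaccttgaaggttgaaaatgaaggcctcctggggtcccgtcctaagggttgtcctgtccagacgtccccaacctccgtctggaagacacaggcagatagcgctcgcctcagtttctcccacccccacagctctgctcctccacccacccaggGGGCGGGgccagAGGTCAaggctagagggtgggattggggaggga
Sox2: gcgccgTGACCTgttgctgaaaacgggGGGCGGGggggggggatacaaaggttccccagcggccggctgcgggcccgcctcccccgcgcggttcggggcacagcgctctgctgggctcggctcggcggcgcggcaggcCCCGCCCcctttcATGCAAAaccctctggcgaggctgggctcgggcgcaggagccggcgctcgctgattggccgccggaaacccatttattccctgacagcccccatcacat
Esrrb: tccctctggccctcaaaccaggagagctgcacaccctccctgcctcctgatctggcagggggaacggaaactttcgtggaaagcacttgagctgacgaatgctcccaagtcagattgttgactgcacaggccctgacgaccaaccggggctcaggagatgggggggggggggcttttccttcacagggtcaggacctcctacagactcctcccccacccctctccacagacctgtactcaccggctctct
Nanog: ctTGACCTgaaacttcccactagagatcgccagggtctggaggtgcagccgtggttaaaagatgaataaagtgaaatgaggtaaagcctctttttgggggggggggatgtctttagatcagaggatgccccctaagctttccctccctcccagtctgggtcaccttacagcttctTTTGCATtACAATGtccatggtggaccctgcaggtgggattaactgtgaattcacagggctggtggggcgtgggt
These windows are chr17:35505782-35506031, chr3:34649745-34649994, chr12:86360867-86361116 and chr6:122707239-122707488, all on the plus strand. Pou5f1 held AGGTCA 33 bases and GGGCGGG 45 bases before the start, counted from the first base of the match. The Sox2 window held ATGCAAA at 99 bases, the half-site on the other strand (TGACCT) at 244 bases and GC boxes at 223 and 112 bases. Nanog held the octamer core on the other strand (TTTGCAT) at 75 bases and ACAATG at 67 bases, with 1 base between them, and TGACCT at 248 bases. None of the 4 motifs was in the Esrrb window. Of 32851 promoters of the same length, 4.12% held the octamer core, 10.7% the SOX core and 23.4% the GC box, and 4607 of them held the half-site. CpG dinucleotides numbered 27 in the Sox2 window, 8 in that of Pou5f1, 6 in that of Esrrb and 3 in that of Nanog, beside a median of 6 over all promoters. A match describes the letters only.

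Kdm3a stood at 7.59 to 14.3 RPKM in the libraries of the DKO and Jmjd1aKO groups, against 25.4 to 28.4 RPKM in Jmjd1bKO and Ctrl libraries and 44.1 and 45.2 RPKM in WT. Kdm3b had 4.26 to 6.73 RPKM in DKO, 4.72 and 7.51 RPKM in Jmjd1bKO, 9.81 to 17.3 RPKM in Jmjd1aKO and Ctrl libraries, and 26.9 RPKM in each WT library. Among genes with both copies removed, the comparison with Ctrl did not pass for Kdm3b in Jmjd1bKO (limma adjusted p = 0.965). The germ cell helicase Ddx4 reached 169.5 to 307 RPKM in the 14 libraries. A list of 10 Sertoli cell markers summed to 721 RPKM in 1 library of P3 Jmjd1aKO and 888 RPKM in 1 of P3 Jmjd1bKO (replicate 2 of each), and to 35.8 to 161 RPKM in the other libraries, with no marker at 0 in any library. In those 2 libraries the Sertoli hormone Amh had 108 and 149.6 RPKM and the inhibin subunit Inha 165 and 205.5 RPKM.

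**Figure D1:**
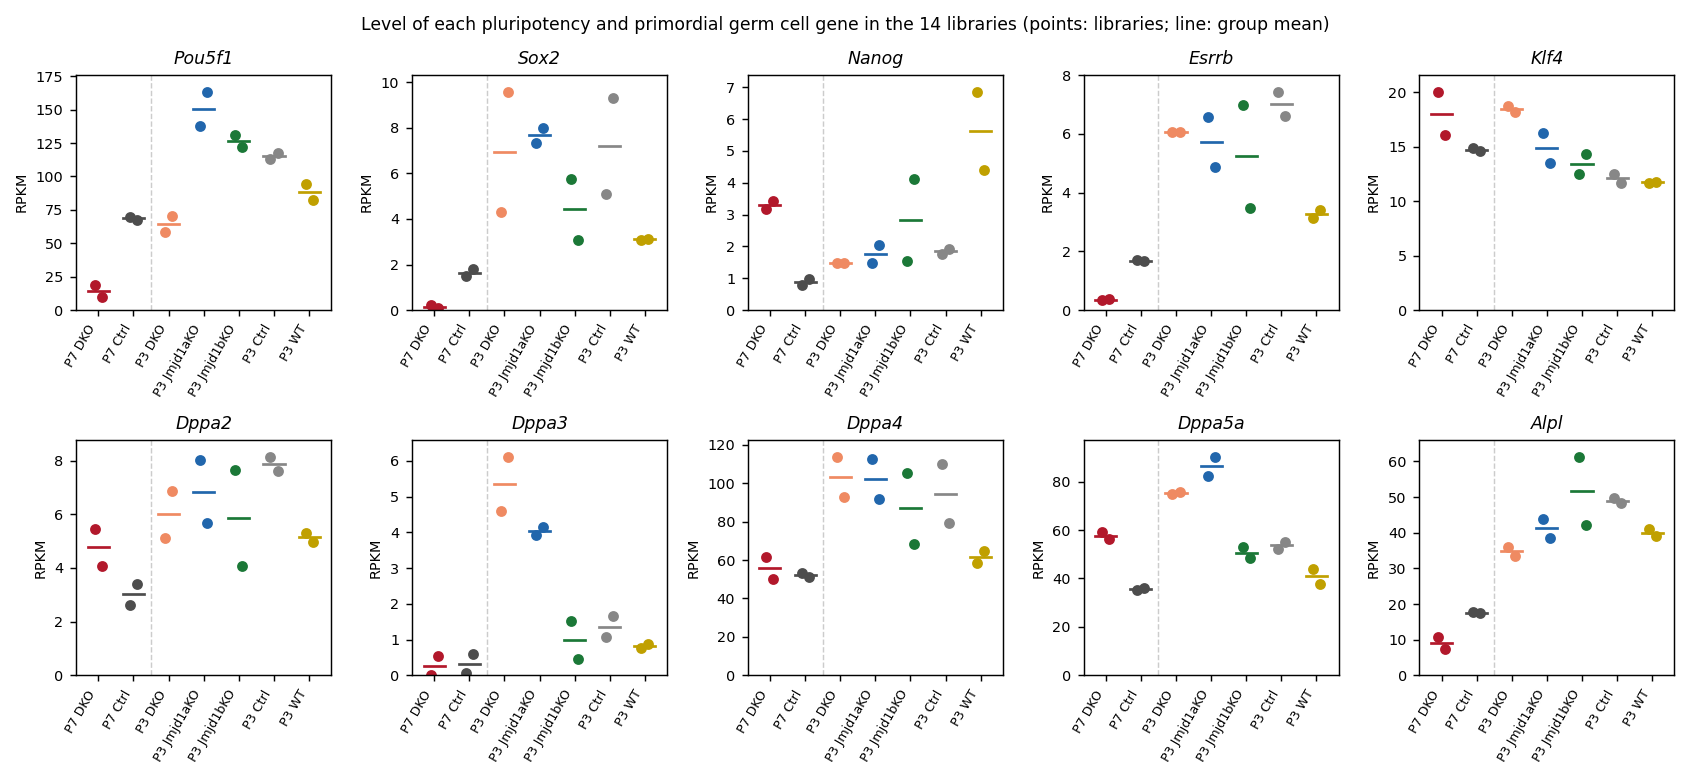
RPKM of each of the 10 genes (vertical axes start at 0) in the 7 groups, with a point for each library and a line at the mean of the 2. Pou5f1, Sox2, Esrrb and Alpl are lowest in P7 DKO, Nanog is highest in P3 WT, and Dppa3 is high in P3 DKO and P3 Jmjd1aKO.

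At P7, loss of both demethylases went with much lower Pou5f1, Sox2, Esrrb and Alpl and with higher Nanog and Dppa5a. Of the 10 genes 4 fell and 2 rose, beside 33.5% of all genes tested called in either direction (16.1% lower and 17.4% higher). Pou5f1 had 18.8 and 9.92 RPKM in P7 DKO libraries, against 69.8 and 67.4 RPKM in P7 Ctrl libraries. Both DKO libraries lay below both controls, as in 35.4% of all genes tested. The log2 change was -2.24 ± 0.23 (SE, limma adjusted p = 0.000131). Alpl had 10.6 and 7.34 RPKM in P7 DKO and 17.7 and 17.4 RPKM in P7 Ctrl, a log2 change of -0.92 ± 0.18 (adjusted p = 0.00414).

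Sox2 and Esrrb were low at P7 in both genotypes, and Sox2 was near the limit of detection in the DKO. Sox2, the partner of Pou5f1 on DNA, had 0.23 and 0.0739 RPKM in P7 DKO, against 1.49 and 1.80 RPKM in P7 Ctrl. By the depth estimate this is about 11 and 3 fragments in the DKO libraries and 66 and 91 fragments in the Ctrl libraries. The log2 change was -1.20 ± 0.35 (limma adjusted p = 0.0260), and the call was lost when any 1 of the 4 libraries was left out (0.0607 to 0.124). Esrrb had 0.34 and 0.365 RPKM in P7 DKO, against 1.69 and 1.66 RPKM in P7 Ctrl, or about 33 and 34 fragments against 157 and 176. Its log2 change was -0.98 ± 0.24 (adjusted p = 0.0110), lost without either P7 Ctrl library (0.0631 without replicate 1 and 0.0582 without replicate 2).

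Nanog, the third core factor, moved the other way. It had 3.19 and 3.44 RPKM in P7 DKO, against 0.773 and 0.969 RPKM in P7 Ctrl, which is about 159 and 166 fragments against 37 and 53. The log2 change was 1.21 ± 0.30 (limma adjusted p = 0.0116), lost without P7 DKO replicate 2 (0.0594) or P7 Ctrl replicate 1 (0.0745). Dppa5a, a KH-domain RNA-binding protein of pluripotent cells, had 59.0 and 56.2 RPKM in P7 DKO and 35.2 and 35.9 RPKM in P7 Ctrl. Its log2 change was 0.68 ± 0.09 (adjusted p = 0.000688), and every library of the DKO lay above both controls, as in 38.1% of all genes tested.

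Klf4, Dppa2, Dppa3 and Dppa4 did not pass the test at P7. Klf4 had 20.0 and 16.0 RPKM in P7 DKO and 14.9 and 14.5 RPKM in P7 Ctrl (log2 change 0.27, 95% interval -0.02 to 0.56). Dppa2, a DNA-binding chromatin protein that works in a pair with Dppa4, had 5.47 and 4.07 RPKM in P7 DKO and 2.63 and 3.41 RPKM in P7 Ctrl (0.52, interval -0.07 to 1.10). Dppa4 overlapped between the groups, with 61.6 and 50.2 RPKM in P7 DKO and 53.4 and 51.0 RPKM in P7 Ctrl (0.09, interval -0.41 to 0.58). Dppa3 is listed at 0 in P7 DKO replicate 1 and had 0.541 RPKM in replicate 2, against 0.0682 and 0.588 RPKM in P7 Ctrl. These are about 0 to 12 fragments per library, and a fall from the Ctrl level was not detectable at this depth.

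Wider gene lists were read in the same comparison of P7 DKO with P7 Ctrl. Of 20 tested genes of a wider pluripotency list 7 fell and 3 rose in P7 DKO, beside 16.1% lower and 17.4% higher over all genes tested. The RNA-binding protein Lin28a had 16.8 and 13.8 RPKM in P7 DKO and 82.8 and 81.5 RPKM in P7 Ctrl (log2 change -2.36 ± 0.12, limma adjusted p = 6.02e-06). The AKT coactivator Tcl1 changed by -2.34, the ETS factor Etv5 by -2.24 and the F-box gene Fbxo15 by -1.36 on the log2 scale, with adjusted p of at most 0.000952. Of 14 tested genes of a primordial germ cell list 3 fell, the RNA-binding factors Nanos2 (-2.84) and Nanos3 (-0.91) among them, and 2 rose, the receptor Kit (0.71) and the fucosyltransferase Fut4 (0.67). The share of that list called was near the 33.5% of all genes called in either direction. The median log2 change was 0.07 for the wider pluripotency list, -0.01 for the primordial germ cell list and 0.02 over all genes tested.

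Stage markers moved in the same libraries, where 33.5% of all genes tested were called in either direction. The lists share genes: Lin28a, Etv5, Nanos2 and Nanos3 are also undifferentiated markers, and Kit is also a differentiating marker. Of 20 markers of undifferentiated spermatogonia 17 fell and 1 rose, and the list summed to 220.4 to 361 RPKM in P7 DKO (1 marker at 0 in replicate 2) against 1102 to 1107 RPKM in P7 Ctrl. Plvap (-5.46), Foxc2 (-4.37), T (-3.66) and Lhx1 (-3.62), genes reported in the most stem-like spermatogonia, had the greatest falls of that list on the log2 scale. Of 11 markers of differentiating spermatogonia 7 rose and 2 fell, and that list summed to 941 to 1119.8 RPKM in P7 DKO against 509.7 to 511 RPKM in P7 Ctrl. The DM-domain factor Dmrtb1 (3.96), the transcription factor Sohlh2 (2.15), the meiotic gatekeeper Stra8 (1.88) and the histone methyltransferase Prdm9 (1.30) rose most. Pan-germ-cell genes summed to 1555 to 1638 RPKM in P7 DKO and 1459 to 1464 RPKM in P7 Ctrl. Of these 9 genes 1 was higher (Dazl) and 4 were lower (Tdrd1, Piwil2, Tdrd9 and Ddx4). The log2 change of Ddx4 was -0.38 (limma adjusted p = 0.0151). Of 8 endothelial markers 5 fell, with sums of 18.2 to 19.8 RPKM in P7 DKO and 116 to 120.1 RPKM in P7 Ctrl and no marker at 0. In P7 Ctrl most of that sum is Plvap, which the undifferentiated list also holds and which had 0.749 and 0.895 RPKM in P7 DKO and 79.2 and 79.5 RPKM in P7 Ctrl. None of 10 Sertoli, 5 Leydig, 4 leukocyte and 4 erythroid markers tested passed, and 2 of 8 stromal markers fell. The spread was estimated over all 14 libraries, with the P3 libraries high in Sertoli transcripts included. The SE was 1.65 for Amh and 1.53 for Inha, beside a median of 0.185 over all genes. With an SE of this size even a large shift could go uncalled, so a Sertoli difference at P7 is undecided. Sertoli markers summed to 85.7 and 161 RPKM in P7 DKO and to 103 and 114 RPKM in P7 Ctrl. The part of any of these marker shifts in the changes of the 10 genes was not tested.

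At P3, loss of both demethylases went with higher Klf4, Dppa3 and Dppa5a, 3 of the 10 genes, beside 2.18% of genes called higher and 4.47% called in either direction. None of the 10 was called lower, as 2.29% of genes were. Dppa3 had 4.61 and 6.10 RPKM in P3 DKO, against 1.06 and 1.66 RPKM in P3 Ctrl, a log2 change of 1.43 ± 0.31 (limma adjusted p = 0.0372). Klf4 had 18.8 and 18.1 RPKM in P3 DKO and 12.5 and 11.6 RPKM in P3 Ctrl, a change of 0.57 ± 0.13 (adjusted p = 0.0399). Dppa5a had 75.1 and 75.7 RPKM in P3 DKO and 52.1 and 55.2 RPKM in P3 Ctrl, a change of 0.48 ± 0.09 (adjusted p = 0.0317). In each case both DKO libraries lay above both controls, as in 30.8% of all genes tested. All 3 calls were lost when any 1 of the 4 libraries was left out, with limma adjusted p of 0.0949 to 0.230 for Dppa3, 0.0872 to 0.222 for Klf4 and 0.0894 to 0.186 for Dppa5a, and the count over all genes then fell to between 10 and 150, against 661. With a pseudocount of 0.1 the Dppa3 and Klf4 calls were lost, and with quantile normalization that of Dppa3.

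The 5 genes whose P3 DKO libraries both lay below the controls, as in 27.9% of all genes tested, did not pass. Pou5f1 had 58.2 and 70.2 RPKM in P3 DKO, against 113 and 118 RPKM in P3 Ctrl, a log2 change of -0.84 ± 0.23 with a limma adjusted p of 0.0621, and passed only when libraries were centred on their medians (0.0468). Alpl had 35.9 and 33.6 RPKM in P3 DKO and 49.7 and 48.3 RPKM in P3 Ctrl (log2 change -0.48, 95% interval -0.89 to -0.08, adjusted p = 0.139). Nanog had 1.47 RPKM in each P3 DKO library and 1.77 and 1.91 RPKM in P3 Ctrl (-0.20, interval -0.86 to 0.46). For Esrrb the values were 6.06 and 6.05 RPKM in P3 DKO and 7.42 and 6.61 RPKM in P3 Ctrl (-0.18, interval -0.72 to 0.35). For Dppa2 they were 5.13 and 6.86 RPKM in P3 DKO and 8.12 and 7.62 RPKM in P3 Ctrl (-0.35, interval -0.94 to 0.23).

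Sox2 and Dppa4 overlapped between the P3 groups. Sox2 had 4.29 and 9.58 RPKM in P3 DKO and 5.08 and 9.31 RPKM in P3 Ctrl (log2 change -0.08, 95% interval -0.87 to 0.71), a wide spread within each group. Dppa4 had 113 and 92.6 RPKM in P3 DKO and 109.9 and 79.1 RPKM in P3 Ctrl (0.14, interval -0.36 to 0.63).

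Among the wider lists at P3, 1 of 20 tested pluripotency genes rose in the DKO, L1td1 (1.17 ± 0.27), and 2 fell, Tcl1 (-1.42 ± 0.26) and Lin28a (-0.71 ± 0.12), on the log2 scale. Of 14 primordial germ cell genes 1 passed, the adhesion molecule Epcam, which was lower (-0.53 ± 0.13). Genes of the primed epiblast, the later pluripotent state, included 2 of 8 that rose, the homeobox gene Otx2 (1.72 ± 0.29) and the growth factor Fgf5 (0.76 ± 0.18), and 1 that fell, the DNA methyltransferase Dnmt3b (-0.54 ± 0.10). Otx2 had 2.02 and 5.16 RPKM in P3 DKO and 0.196 and 0.43 RPKM in P3 Ctrl. Fgf5 averaged 1.39 RPKM in P3 DKO and 0.403 RPKM in P3 Ctrl. The limma adjusted p of these calls ran from 0.0213 (Otx2) to 0.0476 (Fgf5), with 0.0459 for Epcam. Over all genes tested 4.47% were called, and most of those calls were lost with any 1 library left out, as given above. The list medians were 0.15 for wider pluripotency, -0.23 for primordial germ cells and 0.62 for the primed epiblast, beside 0.01 over all genes tested. Of 20 undifferentiated markers 2 rose (Pax7 and Sox3) and 2 fell (Plvap and Lin28a), with list sums of 577 to 616 RPKM in P3 DKO and 884 to 924 RPKM in P3 Ctrl. Of 11 differentiating markers 1 rose (Dmrtb1) and 2 fell (Sohlh2 and Dnmt3b). That list summed to 442 to 488 RPKM in P3 DKO and 513 to 544 RPKM in P3 Ctrl. Sertoli markers summed to 54.4 to 59.8 RPKM in P3 DKO and 35.8 to 44.4 RPKM in P3 Ctrl and endothelial markers to 52.5 to 64.4 RPKM against 92.0 to 92.3 RPKM, and their part in the results was not tested.

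**Figure D2:**
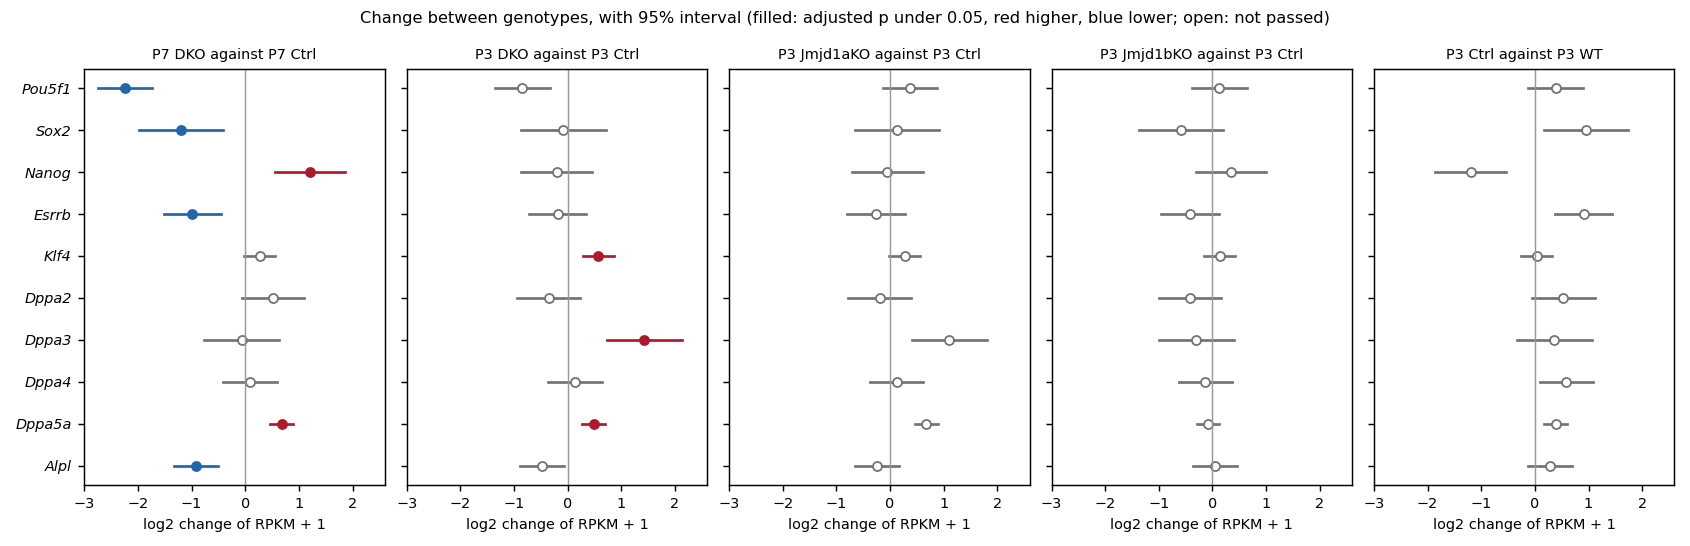
Log2 change of RPKM + 1 (horizontal axis) with its 95% interval for each gene in 5 comparisons of genotypes, filled where the limma adjusted p is under 0.05. Pou5f1, Sox2, Esrrb and Alpl are lower and Nanog and Dppa5a higher in P7 DKO, while Klf4, Dppa3 and Dppa5a are higher in P3 DKO and no gene is filled in the other 3 comparisons.

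Neither single knockout changed any of the 10 genes past the threshold at P3, in comparisons that use the same P3 Ctrl libraries as the DKO. By limma 0.0338% of genes (5 of 14772) were called in Jmjd1aKO, 0.0135% higher and 0.0203% lower, with 1484 at an unadjusted p under 0.05. In Jmjd1bKO 0.0203% (3 genes) were called, 0.00677% higher and 0.0135% lower, with 268 at an unadjusted p under 0.05. In Jmjd1aKO, Dppa5a had 82.5 and 90.1 RPKM against 52.1 and 55.2 RPKM in P3 Ctrl, a log2 change of 0.67 ± 0.09 with an adjusted p of 0.0785, and passed with quantile normalization (0.0204). Dppa3 had 3.93 and 4.14 RPKM in Jmjd1aKO against 1.06 and 1.66 RPKM in P3 Ctrl, a change of 1.10 (95% interval 0.41 to 1.80, adjusted p = 0.339). Both Jmjd1aKO libraries lay above both controls in 4 of the 10 genes, Dppa3 and Dppa5a among them, and below in 2. Over all genes tested the shares were 17.8% above and 18.1% below. Pou5f1 had 138 and 163 RPKM in Jmjd1aKO against 113 and 118 RPKM in P3 Ctrl, a change of 0.38 (interval -0.13 to 0.88). Klf4 had 16.2 and 13.5 RPKM in Jmjd1aKO, a change of 0.27 (interval -0.02 to 0.56).

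In Jmjd1bKO 9 of the 10 genes overlapped the controls, as did 78.4% of all genes tested. Pou5f1, whose libraries both lay above them, had 131 and 122 RPKM in Jmjd1bKO against 113 and 118 RPKM in P3 Ctrl, a log2 change of 0.13 (95% interval -0.38 to 0.64). Dppa3 had 1.51 and 0.445 RPKM in Jmjd1bKO and 1.06 and 1.66 RPKM in P3 Ctrl, a change of -0.30 (interval -0.995 to 0.398). Dppa5a had 53.0 and 48.3 RPKM in Jmjd1bKO, a change of -0.08 (interval -0.30 to 0.13). Several genes split between the 2 Jmjd1bKO libraries, of which replicate 2 is the one high in Sertoli transcripts: Nanog had 1.54 RPKM in replicate 1 and 4.12 RPKM in replicate 2, Esrrb 6.996 and 3.48 RPKM, Dppa2 7.65 and 4.07 RPKM, Dppa4 105.5 and 68.2 RPKM, and Alpl 61.2 and 42.2 RPKM. The part of the Sertoli transcripts in these splits was not tested.

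The double knockout was also set directly against each single knockout. Against Jmjd1bKO, with 16.5% of genes called in either direction (8.63% higher and 7.85% lower), 3 of the 10 genes were higher in P3 DKO and 1 was lower. Pou5f1 was the lower one, with 58.2 and 70.2 RPKM in P3 DKO against 131 and 122 RPKM in Jmjd1bKO, a log2 change of -0.97 ± 0.23 (limma adjusted p = 0.0229). Dppa3 differed by 1.73 ± 0.31 (adjusted p = 0.0125), Dppa5a by 0.57 ± 0.09 (0.0107) and Klf4 by 0.44 ± 0.13 (0.0465). Without P3 DKO replicate 2, or without Jmjd1bKO replicate 2, none of the 4 calls held. Without P3 DKO replicate 1 only the Dppa3 and Dppa5a calls held. With Jmjd1bKO replicate 1 left out, Pou5f1, Dppa3 and Dppa5a kept their calls and that of Klf4 was lost (0.126), while Nanog (-1.06) and Esrrb (0.66) passed. Without both Sertoli-rich libraries the Pou5f1, Dppa3 and Klf4 calls were lost (0.0769, 0.0572 and 0.0658) and Alpl passed (-0.80, adjusted p = 0.0447).

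Against Jmjd1aKO none of the 10 genes passed, where 0.0338% of genes did (5 by limma, 0.00677% higher and 0.0271% lower, with 1674 at an unadjusted p under 0.05). The greatest difference among the 10 was that of Pou5f1, with 58.2 and 70.2 RPKM in P3 DKO against 138 and 163 RPKM in Jmjd1aKO, a log2 change of -1.22 (95% interval -1.72 to -0.71, adjusted p = 0.354). Dppa3 differed by 0.33 (interval -0.37 to 1.02) and Dppa5a by -0.19 (interval -0.40 to 0.02).

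In controls most of the 10 genes were lower at P7 than at P3. Of the 10, 7 were lower in P7 Ctrl than in P3 Ctrl, where 13.4% of genes were called lower and 23.3% in either direction, and none was higher, as 9.94% of genes were. The 9 genes other than Klf4 all had both P7 libraries below both P3 libraries, as did 38.6% of all genes tested. Sox2 had 1.49 and 1.80 RPKM in P7 Ctrl against 5.08 and 9.31 RPKM in P3 Ctrl, a log2 change of -1.58 ± 0.35 (limma adjusted p = 0.0138). Esrrb had 1.69 and 1.66 RPKM in P7 Ctrl against 7.42 and 6.61 RPKM in P3 Ctrl, a change of -1.58 ± 0.24 (0.00354). Alpl had 17.7 and 17.4 RPKM in P7 Ctrl against 49.7 and 48.3 RPKM in P3 Ctrl, a change of -1.43 ± 0.18 (0.00227).

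Pou5f1 had 69.8 and 67.4 RPKM in P7 Ctrl and 113 and 118 RPKM in P3 Ctrl, a log2 change of -0.74 ± 0.23 (limma adjusted p = 0.0416). The Dppa genes had changes of -1.15 ± 0.26 for Dppa2 (0.0151), -0.83 ± 0.22 for Dppa4 (0.0271) and -0.58 ± 0.09 for Dppa5a (0.00476). Nanog (-0.60, 95% interval -1.26 to 0.06), Dppa3 (-0.85, interval -1.54 to -0.15, adjusted p = 0.0743) and Klf4 (0.27, interval -0.02 to 0.55) did not pass. The calls of Esrrb, Alpl and Dppa5a held with any 1 library left out. That of Pou5f1 was lost without any 1 of the 4 (0.115 to 0.167). Those of Dppa2 (0.0643 to 0.109) and Dppa4 (0.114 to 0.187) were lost without P3 Ctrl replicate 1 or either P7 Ctrl library, and that of Sox2 (0.0664 to 0.0914) without P3 Ctrl replicate 2 or either P7 Ctrl library.

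In the DKO, 7 of the 10 genes were lower at P7 than at P3 and 1 was higher, where 30.5% of all genes tested were called lower, 27.8% higher and 58.3% in either direction. Esrrb had 0.34 and 0.365 RPKM in P7 DKO against 6.06 and 6.05 RPKM in P3 DKO, a log2 change of -2.38 ± 0.24 (limma adjusted p = 6.98e-05). Sox2 had 0.23 and 0.0739 RPKM in P7 DKO against 4.29 and 9.58 RPKM in P3 DKO, a change of -2.70 ± 0.35. Pou5f1 had 18.8 and 9.92 RPKM in P7 DKO against 58.2 and 70.2 RPKM in P3 DKO, a change of -2.14 ± 0.23. The change was -2.35 ± 0.31 for Dppa3 and -1.86 ± 0.18 for Alpl, while Dppa4 (-0.87 ± 0.22) and Dppa5a (-0.38 ± 0.09) also fell.

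Nanog was the one gene higher with age in the DKO, with 3.19 and 3.44 RPKM in P7 DKO against 1.47 RPKM in each P3 DKO library. Its log2 change of 0.81 ± 0.30 (limma adjusted p = 0.0387) was lost when any 1 of the 4 libraries was left out (0.0901 to 0.128) and when no filter on low values was set (0.0564). The Dppa4 call was lost without P3 DKO replicate 1 (0.0571) or P7 DKO replicate 2 (0.0564). Klf4 and Dppa2 overlapped between the ages in the DKO, with changes of -0.04 (95% interval -0.33 to 0.25) and -0.28 (interval -0.86 to 0.31).

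In Ctrl cells 4 of 20 wider pluripotency genes were lower at P7 and 1 was higher, a share near the 23.3% of all genes called, and the list median was 0.09 beside -0.01 over all genes tested. The chromatin factor Utf1 changed by -2.13, L1td1 by -1.35, the nuclear receptor Nr5a2 by -1.09 and Zfp42 (Rex1) by 0.87 on the log2 scale. Of 14 primordial germ cell genes 5 were lower, Kit (-1.71), Sox15 (-1.28) and Prdm1 (-1.14) among them, and 3 were higher, Nanos2 (1.76) among them. Of 8 primed epiblast genes 4 were lower and none was higher. Of 20 undifferentiated markers 7 were higher in P7 Ctrl and none was lower, Plvap (2.26) and Foxc2 (1.64) among them.

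In DKO cells 8 of 20 wider pluripotency genes were lower at P7 and 3 were higher, a share near the 58.3% of all genes called. The greatest changes on the log2 scale were those of L1td1 (-2.39), Utf1 (-1.68), Lin28a (-1.56) and Mycn (1.68). Of 14 primordial germ cell genes 5 were lower, among them Tfap2c (-2.06) and Prdm1 (-1.48), which act in specifying germ cells, and 4 were higher, Nanos3 (0.95) among them. Of 8 primed epiblast genes 7 were lower, Lef1 (-3.12) and Otx2 (-2.09) among them. Of 20 undifferentiated markers 14 were lower and 2 higher in P7 DKO, and of 11 differentiating markers 6 were higher and 1 was lower. The median log2 change of the 10 genes was -1.37 in the DKO and -0.84 in Ctrl, beside -0.03 and -0.01 over all genes tested.

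**Figure D3:**
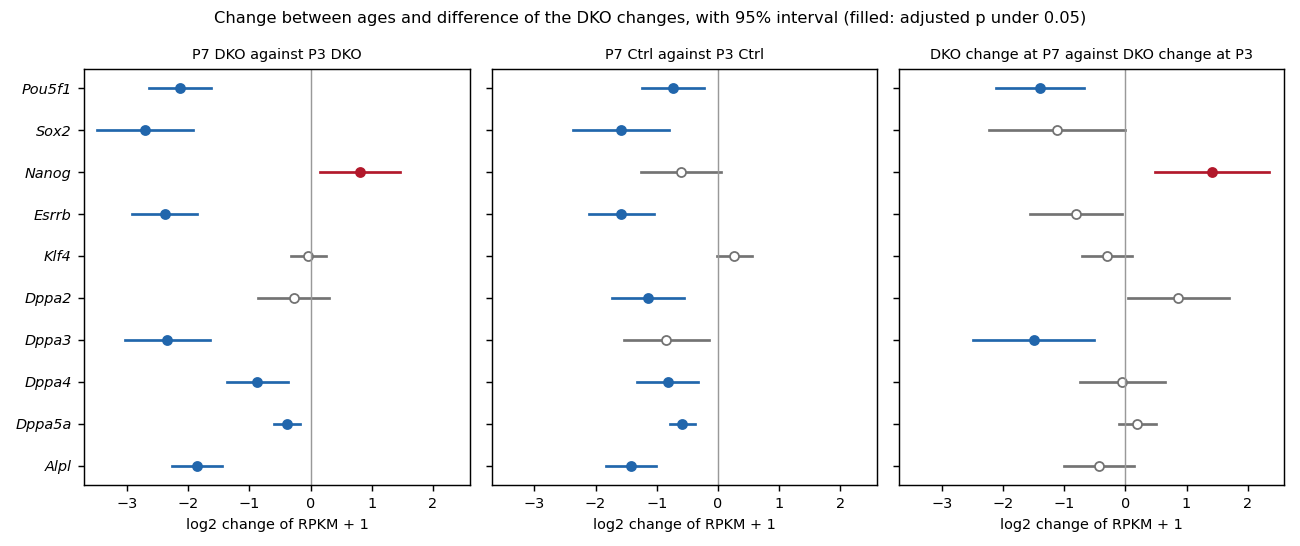
Log2 change of RPKM + 1 with its 95% interval for each gene between P7 and P3 in DKO and in Ctrl cells, and the change in the DKO at P7 minus that at P3. Esrrb, Sox2, Alpl and Pou5f1 are lower at P7 in both genotypes, and Pou5f1, Dppa3 and Nanog are filled in the third panel.

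Whether the change in the DKO differed between the ages was tested as the DKO change at P7 minus the DKO change at P3. Of the 10 genes 3 passed, 2 lower and 1 higher, beside 10.7% lower, 12.2% higher and 22.9% in either direction over all genes tested. For Pou5f1 the difference was -1.40 ± 0.32 on the log2 scale (limma adjusted p = 0.0137), from changes of -2.24 at P7 and -0.84 at P3. It was -1.50 ± 0.44 for Dppa3 (0.0361), from changes of -0.07 at P7 and 1.43 at P3. With 0 to 12 fragments per library at P7, a fall of Dppa3 in P7 DKO could not be seen. Its difference comes from the rise in P3 DKO, which was not seen at P7. Nanog had a difference of 1.41 ± 0.42 (0.0369), from changes of 1.21 at P7 and -0.20 at P3.

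The Pou5f1 difference was lost without P3 DKO replicate 2 (0.0571) or P7 Ctrl replicate 1 (0.0508). That of Nanog was lost when any 1 of the 8 libraries was left out (0.0655 to 0.114). For Dppa3 it was lost in 6 of the 8 cases (0.0562 to 0.134), all but P7 DKO replicate 2 and P7 Ctrl replicate 1. Sox2 (-1.12, 95% interval -2.23 to -0.01), Esrrb (-0.80, interval -1.56 to -0.05) and Dppa2 (0.87, interval 0.04 to 1.70) had adjusted p of 0.132, 0.114 and 0.118 and did not pass. With a pseudocount of 0.1, under which low levels weigh more, Sox2 (-2.76) and Esrrb (-1.77) passed.

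Ctrl and WT cells at P3 differ in Vasa-Cre and in 1 copy of each demethylase gene. None of the 10 genes passed between them, beside 0.704% of genes called (104 by limma, with 3923 at an unadjusted p under 0.05). Nanog had 1.77 and 1.91 RPKM in P3 Ctrl against 6.85 and 4.39 RPKM in P3 WT, a log2 change of -1.20 ± 0.30 (adjusted p = 0.0713). Esrrb had 7.42 and 6.61 RPKM in P3 Ctrl against 3.12 and 3.41 RPKM in P3 WT, a change of 0.91 ± 0.24 (0.0788). Dppa5a had 52.1 and 55.2 RPKM in P3 Ctrl against 44.0 and 37.6 RPKM in P3 WT, a change of 0.39 ± 0.09 (0.0704). These 3 genes passed when both Sertoli-rich libraries, which belong to neither group, were left out of the shared estimate of the spread (0.0143, 0.0123 and 0.0308), as did 2199 genes in all. In 8 of the 10 genes both Ctrl libraries lay above both WT libraries, as in 34.0% of all genes tested, and in 1 (Nanog) both lay below, as in 29.5%. The median change of the 10 was 0.39 beside 0.02 over all genes tested. Sertoli markers summed to 35.8 to 44.4 RPKM in P3 Ctrl against 108 to 138 RPKM in P3 WT, and the P3 WT libraries had the lowest estimated depth, 13.5 and 14.9 M fragments. The part of either in these values was not tested.

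The 10 genes did not share one pattern over the 7 groups. Likeness was measured as the root mean square difference between 2 genes' group means of log2(RPKM + 1), each centred on its own mean. Sox2 and Esrrb were the closest pair (0.186), then Dppa2 and Dppa4 (0.212) and Dppa4 and Dppa5a (0.272). Pou5f1 and Nanog were the least alike (1.27). All group means come from the same 14 libraries, so these values are descriptions.

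In the order of group means, Pou5f1 was highest in P3 Jmjd1aKO (150.5 RPKM), followed by P3 Jmjd1bKO (126.5), P3 Ctrl (115.4), P3 WT (88.3), P7 Ctrl (68.6), P3 DKO (64.2) and P7 DKO (14.4), and of the neighbours in this order only P7 Ctrl and P3 DKO overlapped. For Sox2 and Esrrb the lowest means were those of P3 WT, P7 Ctrl and then P7 DKO, each apart from the next. Nanog was highest in P3 WT (5.62 RPKM on average), followed by P7 DKO (3.31), and lowest in P7 Ctrl (0.871). Dppa3 had its highest means in P3 DKO (5.35 RPKM) and P3 Jmjd1aKO (4.03), apart from each other and from the rest, whose means were 1.36 RPKM or less. Dppa5a was highest in P3 Jmjd1aKO (86.3 RPKM), followed by P3 DKO (75.4) and P7 DKO (57.6). Klf4 varied least, between 11.6 and 20.0 RPKM over the 14 libraries, with P3 DKO (18.5) and P7 DKO (18.0) the highest means and overlapping. Dppa4 ranged from 50.2 to 113 RPKM and Dppa2 from 2.63 to 8.12 RPKM, and for each of them most neighbours in the order overlapped.

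**Figure D4:**
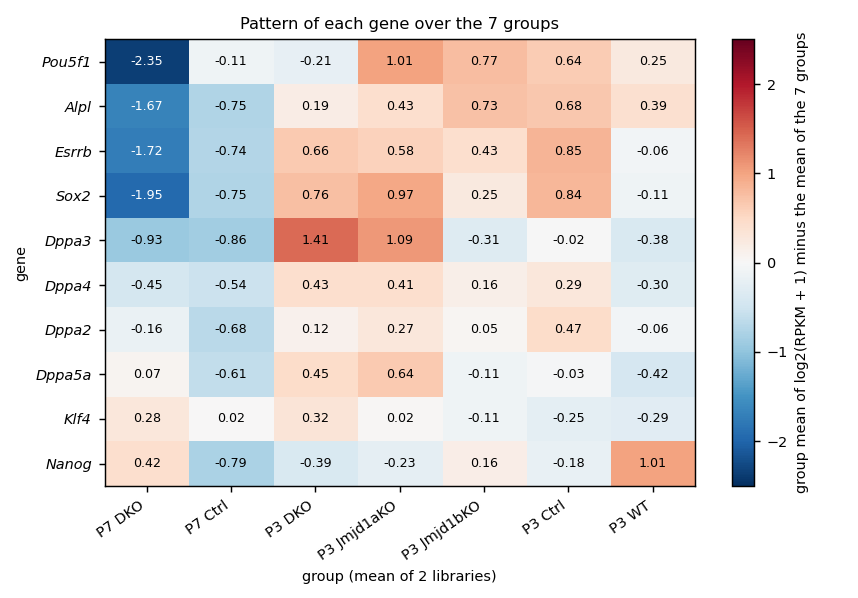
Group mean of log2(RPKM + 1) of each gene minus the mean of its 7 groups, as a colour and a printed value (red above 0, blue below). P7 DKO has the lowest values of Pou5f1 (-2.35), Sox2 (-1.95), Esrrb (-1.72) and Alpl (-1.67), and P3 WT the highest of Nanog (1.01).

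By the same measure, searched over 13349 named genes that passed the filter, the 3 genes most like Pou5f1 were Acy3 (0.186), Tmc6 (0.256) and Pik3cd (0.278). Acy3 averaged 4.70 RPKM in P7 DKO, 37.7 RPKM in P7 Ctrl, 28.8 RPKM in P3 DKO and 66.3 RPKM in P3 Ctrl. Those most like Sox2 were Samd14, Gcnt2 and Rcsd1 (0.186 to 0.194), and like Esrrb Card6, Trh and Arhgap30 (0.0980 to 0.108). Nanog was closest to Trim43b, Mpv17l and Tmem69 (0.182 to 0.207), and Alpl to Coro1a, Capn5 and Pald1 (0.0644 to 0.158). Sptbn4 (0.173) and A2m (0.197) were among the nearest to Dppa3. For Klf4 these were Fbrs, Bend7 and Neu1, for Dppa2 Afp, Ermp1 and Papolb, for Dppa4 Aqp11, Nudt17 and Lincpint, and for Dppa5a Pgap3 and Pbp2 were among them, with differences of 0.0484 to 0.114. A gene with a small range over the groups has small differences from many genes, so the values are not compared between members.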

How the data were processed

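Values were RPKM per gene symbol, made by the authors and deposited as 1 table for each of 14 libraries. Per the labels' protocols, libraries were TruSeq Stranded mRNA LT, from RNA of an AllPrep DNA/RNA Micro preparation. The submitters' processing notes name TopHat2 2.1.1, Cufflinks 2.1.1 and mm10. The annotation and the counting of strand are not given in the sources used here. RPKM hide depth, which was estimated from the steps between values of 3505 genes with 1 transcript (65.1% to 74.0% of values lay within 0.2 of a whole fragment) and is approximate.

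Genes with at least 1 RPKM in 2 or more libraries (14772) were fitted as log2(RPKM + 1) with limma 3.58.1 in R 4.3.3, with 1 mean per group, trended variances and 7 residual degrees of freedom. Two-sided tests were used, with Benjamini-Hochberg adjustment over all genes. Tables and figures were made with Python 3.11.15, pandas 2.3.3, numpy 2.4.6 and matplotlib 3.10.9, and the fit was tested on simulated data.

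The 10 genes and the gene lists were chosen with earlier results of these data known, so no count over them is independent evidence. Named were all 10 genes, at most 4 called genes per germ cell or pluripotency list and comparison, Kdm3a, Kdm3b, Ddx4, Amh and Inha, and the 3 most similar genes of each of the 10. Some of these similar genes are not reported here. Alternatives were a pseudocount of 0.1, no filter, quantile normalization, median centring, variances without a trend, the replicate number as a block, omission of both Sertoli-rich libraries and of each library in turn. The comparisons of DKO with each single knockout were added after the data were seen.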

Additional observations from a re-analysis of the deposited data

Results flagged for a closer look

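For 3 of the 10 genes, where 22.9% of all genes tested passed, the change in the double knockout differed between the ages by a test of the difference itself (limma, interaction of genotype and age). Pou5f1 had a difference of -1.40 on the log2 scale, with changes of -2.24 at P7 and -0.84 at P3, and the call was lost in 2 of 8 cases when 1 library was left out. Nanog had a difference of 1.41, with changes of 1.21 at P7 and -0.20 at P3, and the call was lost in 8 of 8 cases. Dppa3 had a difference of -1.50, with changes of -0.07 at P7 and 1.43 at P3, and the call was lost in 6 of 8 cases. At P7 Dppa3 had 0 to 12 estimated fragments per library in both genotypes, so a fall in the DKO could not be seen there. The difference comes from the rise in P3 DKO, which was not seen at P7.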

How the results depend on the processing

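The 31 calls for the 10 genes were recomputed in 353 alternatives: 269 kept the direction and the call, 84 lost the call and none turned direction. The 69 values without a call had 787 alternatives, of which 17 passed the threshold and 46 changed sign. The 116 calls for genes of the wider lists, in which a gene can enter for several comparisons, were lost in 253 of 1360 alternatives, and 1 changed sign (Dazl in P7 DKO against P3 DKO, -0.0355 with quantile normalization). With 1 library left out, the number of the 10 genes called was 0 in each case for P3 DKO against P3 Ctrl (3 with all), 3 to 5 for P7 DKO against P7 Ctrl (6), 3 to 5 for P7 Ctrl against P3 Ctrl (7), 0 to 2 for the difference between ages (3) and 0 to 5 for P3 DKO against P3 Jmjd1bKO (4). A pseudocount of 0.1 left 1 gene called in P3 DKO against P3 Ctrl and 2 in P3 DKO against P3 Jmjd1bKO. Without a filter 1 gene was called for the difference between ages. Quantile normalization gave 1 call in P3 Jmjd1aKO against P3 Ctrl. Without both Sertoli-rich libraries the counts were 5 for the difference between ages, 3 for P3 Ctrl against P3 WT and 2 for P3 DKO against P3 Jmjd1bKO.

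Over all genes, P3 DKO against P3 Ctrl gave 661 calls, 1541 without a filter, 365 with a pseudocount of 0.1 and 1931 without the Sertoli-rich libraries. The labels do not say whether replicate numbers pair the samples. Correlations of the replicate differences between groups were mixed (7 of 21 over 0.1, range -0.13 to 0.58) and do not settle it. With the replicate block the count was 1140 there, 776 against 104 for P3 Ctrl against P3 WT, where 1 of the 10 genes passed (Esrrb), and 5654 against 4954 for P7 DKO against P7 Ctrl. The cause of these shifts was not tested.

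Values without a call that changed sign were Dppa4 (-0.0017) in P7 DKO against P7 Ctrl, Dppa5a (-0.0792) in the difference between ages and Dppa2 (-0.0502) in P3 DKO against P3 Jmjd1bKO with quantile normalization, and Klf4 (0.0396) in P7 DKO against P3 DKO and Dppa4 (0.0515) in the difference between ages with median centring. Without the Sertoli-rich libraries they were Dppa2 (0.0254) in P3 Jmjd1aKO and Nanog (-0.16), Dppa3 (0.10) and Dppa4 (0.18) in P3 Jmjd1bKO against P3 Ctrl, Esrrb (-0.10) and Dppa4 (-0.13) in P3 DKO against P3 Jmjd1aKO, and Esrrb (-0.18), Dppa2 (-0.32) and Dppa4 (-0.0414) in P3 DKO against P3 Jmjd1bKO. Leaving out single libraries gave the following ranges for uncalled log2 changes that changed sign. For P3 Jmjd1bKO against P3 Ctrl they were Alpl -0.21 to 0.31, Dppa3 -0.70 to 0.10, Dppa4 -0.45 to 0.18, Nanog -0.16 to 0.85. For P3 DKO against P3 Jmjd1aKO they were Dppa2 -0.38 to 0.0594, Dppa4 -0.13 to 0.16, Esrrb -0.10 to 0.26, Sox2 -0.71 to 0.29. For P3 DKO against P3 Jmjd1bKO they were Dppa2 -0.32 to 0.45, Dppa4 -0.0414 to 0.58, Esrrb -0.18 to 0.66. For P3 Jmjd1aKO against P3 Ctrl they were Dppa2 -0.41 to 0.0254, Dppa4 -0.11 to 0.36, Nanog -0.20 to 0.0962, Sox2 -0.25 to 0.51. For P7 DKO against P7 Ctrl they were Dppa3 -0.38 to 0.24, Dppa4 -0.0565 to 0.23. For DKO change at P7 against DKO change at P3 they were Dppa4 -0.28 to 0.19. For P3 DKO against P3 Ctrl they were Dppa4 -0.0994 to 0.37, Sox2 -0.58 to 0.42. For P3 Ctrl against P3 WT they were Klf4 -0.0108 to 0.0851. For P7 DKO against P3 DKO they were Klf4 -0.19 to 0.11.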
